A study of Mus musculus with 18 samples.

Results

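Mature myelin genes are the 9 genes Mbp, Mog, Mag, Mobp, Cnp, Opalin, Ermn, Ugt8a and Aspa, out of 36172 genes listed in the count file and 14803 genes tested. They were chosen by symbol, as transcripts that oligodendrocytes use to build and maintain the myelin sheath, and all 9 passed the filter on low counts. The libraries came from the brains of Cx3cr1-cre/ERT2+; NuTRAP+ mice, in which tamoxifen, given daily for 5 days, switches on a cre recombinase under the Cx3cr1 promoter and with it an EGFP-tagged ribosomal protein, mainly in microglia. Tamoxifen was given at about 3 months of age. From 3 to 4 weeks later, LPS animals received 5 mg/kg lipopolysaccharide intraperitoneally and PBS animals the vehicle, and tissue was taken 24 h after that. Translating ribosome affinity purification (TRAP) was done on 1 hemisected brain per animal. The input library was made from cleared lysate before the pulldown. The positive library was made from RNA recovered in the pulldown of the tagged ribosomes.

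Both treatments gave 4 input libraries each, while positive libraries numbered 4 after PBS and 5 after LPS, and they are named here by fraction, treatment and animal number. The PBS animals were 268 and 506 (female) and 272 and 273 (male), and the LPS animals were 266, 270, 271 and 507 (female) and 267 (male). Library totals lay between 22968834 and 35123335 estimated counts. The input sample of animal 271 yielded no more than 1250 counts, none of them in the 9 genes, and was left out. Values are normalised counts, that is, estimated counts divided by a size factor, and a gene was called where edgeR's quasi-likelihood test gave a Benjamini-Hochberg adjusted p under 0.05 over all genes tested and the level was over 25% higher or over 20% lower. In the positive fraction all 9 microglia markers checked were called higher than in input, by between 4.00 and 4.43 on the log2 scale in PBS animals, as the labels would have it. In whole tissue, fewer cells of a type and less RNA per cell cannot be told apart.

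Myelin is the membrane that oligodendrocytes wrap around axons of the central nervous system. Its compaction depends on Mbp, its outer surface carries Mog, the layer that faces the axon carries Mag, and its lipid is rich in galactosylceramide made by Ugt8a. Genes of this kind are switched on together when an oligodendrocyte matures and stay high in the adult brain, which makes them common markers of the cell type. On build mm10 the gene models of the count file lie at chr2:58045115-58052752 for Ermn, chr3:125865343-125938550 for Ugt8a, chr7:30899183-30914832 for Mag, chr9:120149742-120176091 for Mobp and chr11:73304988-73324637 for Aspa. Those of Cnp, Mog and Opalin lie at chr11:100574939-100581739, chr17:37010740-37023398 and chr19:41063420-41077113. None of the 9 overlaps another listed gene on its own strand, while Mbp overlaps 1 on the other strand. Reads were aligned by strand, and whether they were also counted by strand is not stated.

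Of the 9 genes, 4 were called lower after LPS in both fractions, Opalin, Ugt8a, Mog and Ermn, while 5.26% of all genes tested were called lower in input and 14.9% in the positive fraction. Each of these shares refers to a single fraction, so neither is the share of genes called lower in both. The promoter windows of the 4 genes are shown because these genes were called in both sets of libraries. Each line gives the 250 bases upstream of the RefSeq start on build GRCm38.p6, written 5′ to 3′ on the strand of the gene. Capitals mark matches on either strand to ACAAAG or ACAATG (words bound by SOX factors), CTGGCAC or CTGGTAC (MYRF), CAGCTG or CATCTG (E-boxes) and TATAAA.
Opalin, chr19:41077114-41077363, minus strand: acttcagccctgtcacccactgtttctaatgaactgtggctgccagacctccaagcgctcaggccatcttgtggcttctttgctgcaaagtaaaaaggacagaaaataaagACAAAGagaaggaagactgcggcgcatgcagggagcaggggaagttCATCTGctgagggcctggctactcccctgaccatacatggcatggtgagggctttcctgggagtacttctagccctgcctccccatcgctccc
Ugt8a, chr3:125938653-125938902, minus strand: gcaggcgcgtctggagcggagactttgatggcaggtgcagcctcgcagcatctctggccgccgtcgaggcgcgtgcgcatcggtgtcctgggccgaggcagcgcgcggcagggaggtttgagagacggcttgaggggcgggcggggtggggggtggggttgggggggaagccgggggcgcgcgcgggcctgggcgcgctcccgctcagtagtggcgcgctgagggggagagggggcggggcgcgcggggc
Mog, chr17:37023399-37023648, minus strand: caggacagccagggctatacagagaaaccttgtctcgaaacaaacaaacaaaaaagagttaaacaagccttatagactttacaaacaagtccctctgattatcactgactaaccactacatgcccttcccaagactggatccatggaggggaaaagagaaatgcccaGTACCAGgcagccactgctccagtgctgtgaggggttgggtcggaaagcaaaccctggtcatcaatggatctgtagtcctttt
Ermn, chr2:58052865-58053114, minus strand: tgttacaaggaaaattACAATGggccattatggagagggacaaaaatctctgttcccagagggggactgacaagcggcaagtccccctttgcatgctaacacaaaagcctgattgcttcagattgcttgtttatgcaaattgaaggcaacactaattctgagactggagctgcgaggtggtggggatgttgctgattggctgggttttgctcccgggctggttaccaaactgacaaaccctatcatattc
For Opalin, Mog and Ermn the bases after the RefSeq start were found in a transcript of the reference, whereas for Ugt8a they were not. The windows of Ugt8a and Ermn lie upstream of their gene models in the count file without touching them. The promoter table had an entry for 8 of the 9 genes, all but Mbp, with 3 starts for Mag. A gene counted if any of its windows held the word, while the shares over all windows count each window singly. Mag, with its 3 windows, thus had more openings for a match. ACAAAG was found in the windows of 4 of the 8 genes, namely Opalin, Cnp, Mag and Mobp, and in 16.5% of all 32851 windows of that length. CTGGCAC lay in the windows of Cnp and Mag, against 4.19% of all windows, and CTGGTAC in that of Mog, against 1.83%. CATCTG was present for Opalin and Aspa (14.4% of all windows), CAGCTG for Aspa (13.0%), ACAATG for Ermn (10.7%) and TATAAA for Aspa (12.4%). The Ugt8a window held none of these words, and no word was shared by the 4 genes printed. CAGCTG reads the same on both strands, and no 2 words overlapped in the 4 windows printed. A match describes the letters in a window and not a bound site.

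The 9 genes together took 0.338% ± 0.0730 (SD) of the counts of an Input PBS library, 0.225% ± 0.0356 of an Input LPS library, 0.0699% ± 0.0107 of a Positive PBS library and 0.0589% ± 0.00681 of a Positive LPS library. Mbp alone supplied most of these counts, and the other 8 genes took 0.118% ± 0.0237, 0.0740% ± 0.00953, 0.0287% ± 0.00288 and 0.0224% ± 0.00361 in the same order. Ranges of the share of all 9 genes did not overlap between the fractions. In Input PBS the library of animal 272 was the highest for 9 of the 9 genes.

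Levels were compared between genes per kilobase of annotated exon. In Input PBS, Mbp stood at 7442 ± 1752 normalised counts per kilobase (SD, n = 4), Cnp at 4609 ± 912, Mag at 2823 ± 758 and Mobp at 1672 ± 272. Mog followed at 1142 ± 326 and Ermn at 731 ± 174, and the lowest levels per kilobase were those of Ugt8a at 351 ± 90.0, Aspa at 265 ± 48.1 and Opalin at 236 ± 120. The library ranges separated Mag from Mobp and Ermn from Ugt8a, whereas all other neighbours in this order overlapped. In Positive PBS the order was the same apart from Mobp, at 580 ± 120, which stood above Mag, at 509 ± 79.0, with overlapping ranges. Exons were merged over all basic transcripts of a gene, so a gene with long alternative exons reads lower on this scale.

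**Figure D1:**
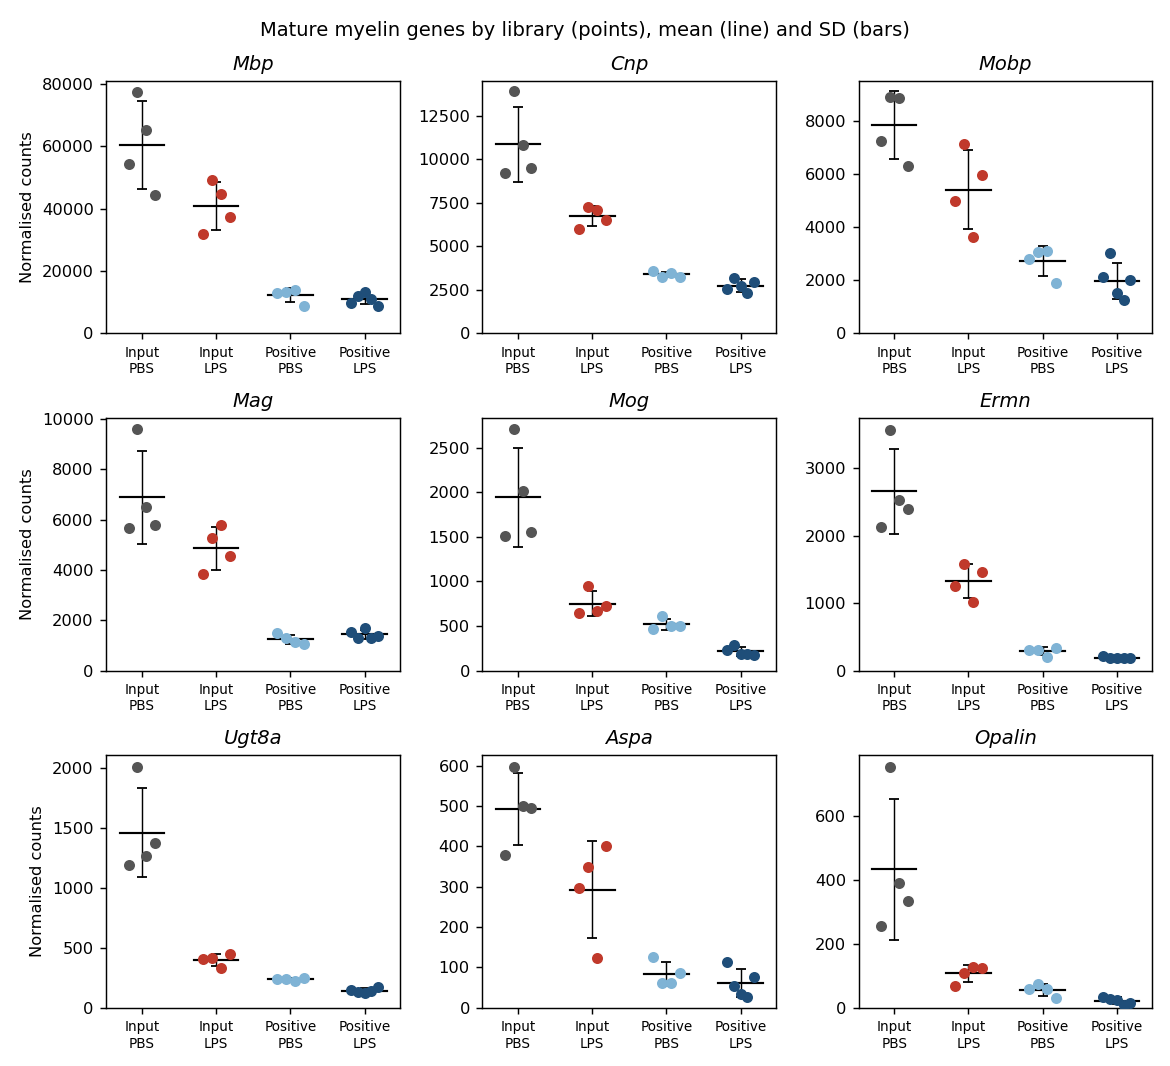
Normalised counts of each gene (y axis, linear from 0, a separate scale for each gene) in the 17 libraries, by group of fraction and treatment (x axis). Points are libraries in order of animal number, lines are means and bars are SD (n = 4, 4, 4 and 5). Every positive library lies below every input library of the same treatment for all 9 genes, and the Input LPS libraries of Ugt8a, 332 to 450, lie clear of its Input PBS libraries, 1191 to 2013.

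All 9 genes were depleted in the positive fraction. In PBS animals 9 of the 9 were called lower than in input, while 18.8% of all genes tested were called lower, and 9 of the 9 had no overlap between the groups, against 20.5% of all genes in that direction. The median log2 fold change of the 9 genes was -2.47, and that of all genes tested was -0.0009. Ermn, an actin-binding protein of the oligodendrocyte cytoskeleton, was lowest relative to input, at 10.8% of the input level (log2 fold change -3.20 ± 0.18 SE, adjusted p = 5.9e-11). Mobp, a small basic protein of the compact sheath, was least depleted, at 34.7% (-1.53 ± 0.24, adjusted p = 5.0e-05).

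The remaining genes fell between these. Opalin was at 13.0% of input in PBS animals (-2.94 ± 0.37), Ugt8a at 16.2% (-2.63 ± 0.16), Aspa at 17% (-2.55 ± 0.39) and Mag at 18% (-2.47 ± 0.17). Mbp was at 20.3% (-2.30 ± 0.19), Mog at 26.8% (-1.90 ± 0.19) and Cnp at 31.2% (-1.68 ± 0.12).

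In LPS animals 9 of the 9 genes were again called lower in the positive fraction, against 25.8% of all genes, and 9 of the 9 had no overlap, against 20.1%. Their median log2 fold change was -1.81, with all genes at -0.03. Ermn was at 14.2% of input (-2.81 ± 0.17), Opalin at 20.5% (-2.29 ± 0.37), Aspa at 20.6% (-2.28 ± 0.37) and Mbp at 27.2% (-1.88 ± 0.17). Mog was at 28.6% (-1.81 ± 0.18), Mag at 29.7% (-1.75 ± 0.16), Ugt8a at 35.4% (-1.50 ± 0.15), Mobp at 36.7% (-1.45 ± 0.22) and Cnp at 40.8% (-1.29 ± 0.11). The comparisons of PBS and of LPS animals share no library, but both came from a common fit of the 4 groups and are not fully independent.

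Because input and positive RNA came from the same animals, the depletion was also taken within each of the 8 animals that had both libraries. For Ermn the log2 ratio of positive to input was -2.82 in animal 268, -3.54 in 272, -3.63 in 273 and -2.83 in 506, all PBS, and -2.58 in 266, -3.07 in 267, -2.46 in 270 and -3.01 in 507, all LPS. For Opalin, a transmembrane glycoprotein of oligodendrocytes, it was -2.12, -3.33, -2.70 and -3.51 in the same PBS animals and -0.99, -1.97, -2.34 and -3.15 in the LPS animals. Opalin thus ranged from -3.51 to -0.99 over the 8 animals, with PBS animal 506 the most and LPS animal 266 the least depleted.

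For Ugt8a the log2 ratio was -2.30, -3.09, -2.51 and -2.49 in PBS animals and -1.47, -1.68, -1.47 and -1.37 in LPS animals, so that the treatments did not overlap. For Cnp, an enzyme of the uncompacted myelin layers, it was -1.37, -2.09, -1.64 and -1.55 in PBS animals and -1.25, -1.18, -1.38 and -1.13 in LPS animals. The Cnp ranges touched, animal 270 lying just below animal 268. For Mobp the ratio kept within -1.73 to -1.37 in PBS animals and -1.57 to -1.23 in LPS animals, the narrowest spread among PBS animals.

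The depletion was compared between the genes in the same 8 animals, by a two-sided exact permutation test that flipped the sign of each animal's difference. This comparison of 36 pairs of genes was added after the values had been seen, and the smallest p it can give is 0.0078. After adjustment over the 36 pairs, 20 pairs had p under 0.05. Ermn was more depleted than Mbp, Mog, Mag, Mobp, Cnp, Ugt8a and Aspa in 8 of 8 animals each (exact permutation p = 0.0078, adjusted p = 0.019), and the mean log2 difference was -0.65 for Ermn minus Aspa and 1.56 for Mobp minus Ermn. Cnp was less depleted than Mbp, Mag, Mog, Ermn, Ugt8a and Aspa in 8 of 8 animals each (adjusted p = 0.019 by the same exact test). Cnp and Mobp did not separate, since Mobp minus Cnp averaged 0.02 and was above 0 in 4 of 8 animals (exact permutation p = 0.80). Mbp and Mag did not separate either, with a mean difference of -0.0065 (exact permutation p = 0.94).

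**Figure D2:**
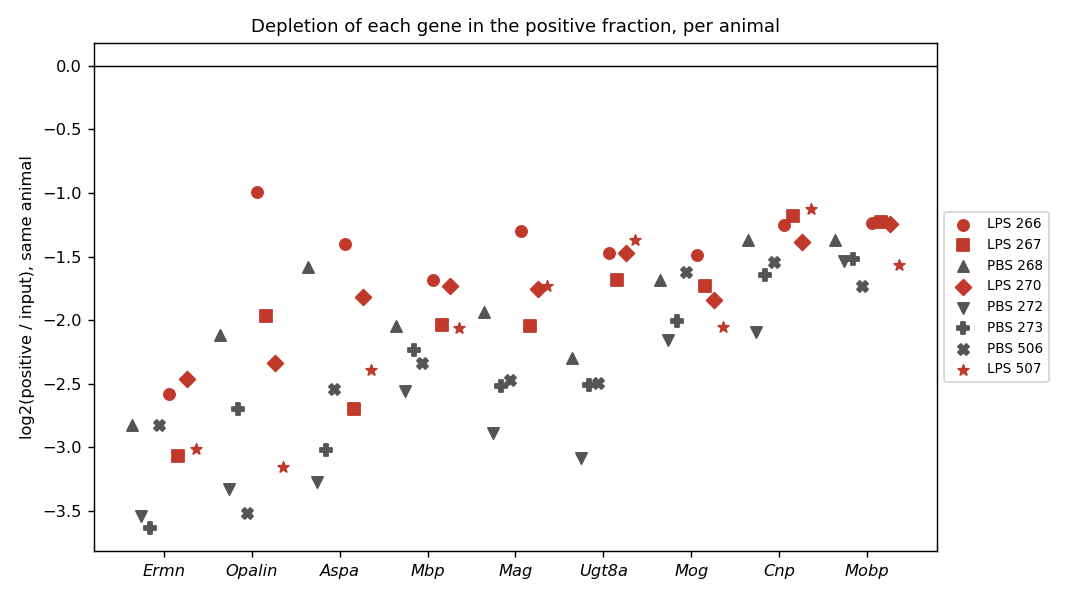
log2 ratio of the positive to the input normalised counts of the same animal (y axis) for each gene (x axis, ordered by the mean), with 1 symbol per animal, PBS animals in grey and LPS animals in red. All 72 points lie below 0, Ermn lies lowest with values from -3.63 to -2.46, and for Ugt8a the LPS animals lie above the PBS animals.

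Genes of other cell types were set beside the 9 genes. In PBS animals the median log2 fold change of positive over input was -0.07 for 7 astrocyte markers, 0.03 for 8 neuron markers, 1.33 for 6 endothelial markers and 4.23 for 9 microglia markers. Of the neuron markers 3 were called higher and none lower, and of the astrocyte markers 1 was called higher and 2 lower. Of all genes tested, 18.8% were called lower. Over all genes, 52.0% to 55.1% of the calls in this comparison were higher when 1 library was left out at a time. The 8 neuron markers together took 0.687% to 0.720% of an Input PBS library and 0.662% to 0.737% of a Positive PBS library, while the 9 myelin genes went from between 0.264% and 0.431% to between 0.0538% and 0.0756%. None of the markers of these lists was at 0 in a group. How much RNA in the positive libraries came from ribosomes without the tag was not tested. Levels of the myelin genes there cannot be read as levels on tagged ribosomes alone.

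After LPS 7 of the 9 genes, all but Mobp and Aspa, were called lower in input and none higher, against 5.26% of all genes called lower, and 5 of the 9 had no overlap between Input LPS and Input PBS, against 11.5% of all genes in that direction. Their median log2 fold change was -0.75, against 0.004 for all genes. In the positive fraction 4 of the 9 were called lower and none higher, against 14.9% of all genes, and 3 of the 9 had no overlap, against 13.0%, with a median of -0.48 against 0.01 for all genes. With each animal as a block, 9 of the 9 were called in input and 2 in the positive fraction, namely Mog and Ugt8a. In female animals alone, 4 of the 9 were called in input, namely Mog, Ugt8a, Ermn and Cnp. Sex was not balanced between the treatments, and with sex as a covariate 6 were called in input and 4 in the positive fraction.

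**Figure D3:**
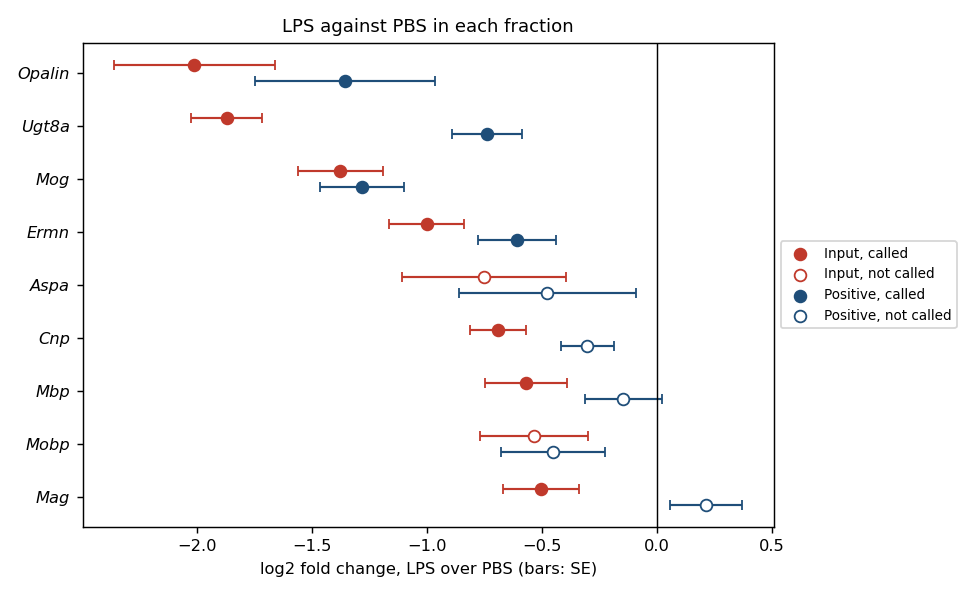
log2 fold change of LPS over PBS (x axis, bars are SE) for each gene (y axis), in input in red and in the positive fraction in blue. Filled symbols are called and open ones are not. Opalin, Ugt8a, Mog and Ermn are filled in both colours, and Mag is the one gene whose positive value, 0.21, lies above 0.

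Opalin was called lower after LPS in both fractions. In input it stood at 255 in animal 268, 754 in 272, 390 in 273 and 334 in 506 after PBS, and at 68.2 in 266, 109 in 267, 126 in 270 and 125 in 507 after LPS. All LPS libraries were below all PBS libraries, and Opalin fell by 75.2% (log2 fold change -2.01 ± 0.35 SE, adjusted p = 6.2e-04). Without the input library of animal 272 the log2 fold change was -1.60 (adjusted p = 0.0031), and in female animals alone it was -1.47 (adjusted p = 0.080).

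In the positive fraction Opalin stood at 58.8, 75.2, 60.1 and 29.3 in PBS animals 268, 272, 273 and 506, and at 34.3, 28.0, 25, 8.84 and 14.1 in LPS animals 266, 267, 270, 271 and 507. PBS animal 506 overlapped with the LPS libraries. Opalin fell by 60.9% (-1.35 ± 0.39, adjusted p = 0.010), and with the animal as a block the value was -1.41 (adjusted p = 0.069). In female animals alone it was -1.12 in this fraction (adjusted p = 0.12).

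Ugt8a encodes the transferase that puts galactose on ceramide, the committed step towards the main glycolipids of myelin. In input its values were 1191, 2013, 1270 and 1376 in PBS animals 268, 272, 273 and 506, and 404, 415, 332 and 450 in LPS animals 266, 267, 270 and 507. The groups were far apart, and Ugt8a fell by 72.6% (-1.87 ± 0.15, adjusted p = 2.3e-07). Among positive libraries the PBS values were 242, 237, 223 and 245, and the LPS values, with animal 271 added, were 146, 129, 120, 140 and 174. These did not overlap either, and Ugt8a fell by 40.1% (-0.74 ± 0.15, adjusted p = 8.3e-04).

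In the main fit, which does not pair the libraries of an animal, Ugt8a was the 1 gene of the 9 called for a difference of the LPS effect between fractions. Of all genes, 5.46% were called in that direction. With the animal as a block the difference was called for 4 of the 9, Ugt8a, Mag, Mbp and Cnp, and for 1915 genes in all. The effect in the positive fraction minus that in input was 1.13 ± 0.21 on the log2 scale (adjusted p = 0.0033). In female animals alone the difference was 0.96 (adjusted p = 0.13).

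Mog, the immunoglobulin-like glycoprotein of the outermost myelin surface, fell without overlap in both fractions. In input it stood at 1506, 2704, 2017 and 1555 in PBS animals 268, 272, 273 and 506, and at 649, 952, 673 and 725 in LPS animals 266, 267, 270 and 507. No LPS library reached a PBS library, and Mog fell by 61.5% (-1.38 ± 0.19, adjusted p = 5.2e-05). After the pulldown it stood at 468, 607, 503 and 504 after PBS and at 232, 287, 188, 190 and 175 after LPS, again without overlap, and fell by 58.9% (-1.28 ± 0.18, adjusted p = 2.3e-05). The difference between the fractions was 0.09 ± 0.26 (adjusted p = 0.89).

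Mag, a lectin of the myelin layer that faces the axon, stood in input at 5671, 9608, 6489 and 5780 in PBS animals 268, 272, 273 and 506, and at 3826, 5277, 5774 and 4557 in LPS animals 266, 267, 270 and 507. Animal 270 lay within the PBS values, and Mag fell by 29.5% (-0.50 ± 0.16, adjusted p = 0.047). This call was lost without any 1 of 9 libraries, with adjusted p between 0.051 and 0.20, and with sex as a covariate (adjusted p = 0.074). Among these, the positive libraries of animals 267, 272, 273 and 507 enter the common fit but not the comparison in input.

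In pulled-down RNA Mag stood at 1482, 1302, 1136 and 1045 after PBS and at 1552, 1278, 1710, 1291 and 1373 after LPS. The groups overlapped, with a log2 fold change of 0.21 ± 0.16 (adjusted p = 0.29). The difference between the fractions was 0.72 ± 0.23 (adjusted p = 0.068), and with the animal as a block it was called, at 0.74 (adjusted p = 0.015).

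Ermn in input stood at 2132, 3571, 2527 and 2397 in PBS animals 268, 272, 273 and 506, and at 1253, 1587, 1015 and 1461 in LPS animals 266, 267, 270 and 507. The groups did not overlap, and Ermn fell by 50.0% (-0.999 ± 0.16, adjusted p = 3.3e-04). Among TRAP-positive libraries it stood at 302, 307, 204 and 338 after PBS and at 210, 190, 185, 181 and 181 after LPS. PBS animal 273 lay below LPS animal 266, and Ermn fell by 34.4% (-0.61 ± 0.17, adjusted p = 0.0075), a call that was lost with the animal as a block (-0.59, adjusted p = 0.095) and without animals 506 and 507 (-0.51, adjusted p = 0.070).

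Among the abundant structural genes, Mbp encodes the basic protein that holds the cytoplasmic faces of the membrane together. In input it stood at 54233, 77569, 65399 and 44591 in PBS animals 268, 272, 273 and 506, and at 31889, 49236, 44694 and 37339 in LPS animals 266, 267, 270 and 507. PBS animal 506 lay below LPS animals 267 and 270, and Mbp fell by 32.5% (-0.57 ± 0.18, adjusted p = 0.039). The call was lost without the input library of any 1 of animals 266, 270, 272, 273 and 507, with adjusted p between 0.057 and 0.15. Among positive libraries Mbp stood at 13105, 13181, 13921 and 8847 after PBS and at 9936, 11978, 13437, 11100 and 8959 after LPS, with overlap and a log2 fold change of -0.15 ± 0.17 (adjusted p = 0.51). The difference between the fractions was 0.42 ± 0.24 (adjusted p = 0.37), and with the animal as a block it was called, at 0.41 (adjusted p = 0.035).

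Cnp in input stood at 9241, 13918, 10809 and 9488 in PBS animals 268, 272, 273 and 506, and at 6022, 7288, 7102 and 6523 in LPS animals 266, 267, 270 and 507. The groups did not overlap, and Cnp fell by 38% (-0.69 ± 0.12, adjusted p = 6.5e-04). After the pulldown it stood at 3583, 3269, 3461 and 3248 after PBS and at 2531, 3209, 2720, 2302 and 2981 after LPS, all below the PBS libraries. The log2 fold change there was -0.30 ± 0.11 (adjusted p = 0.042), which passed the p threshold but not that of a level over 20% lower. The difference between the fractions was 0.39 ± 0.17 (adjusted p = 0.20), and with the animal as a block it was called, at 0.42 (adjusted p = 0.0498).

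Mobp in input stood at 7264, 8895, 8878 and 6306 in PBS animals 268, 272, 273 and 506, and at 4972, 7124, 3623 and 5951 in LPS animals 266, 267, 270 and 507. LPS animal 267 lay above PBS animal 506, and the log2 fold change of -0.53 ± 0.24 was not called (adjusted p = 0.15), whereas with the animal as a block it was (-0.62, adjusted p = 0.039). In pulled-down RNA Mobp stood at 2812, 3064, 3099 and 1898 after PBS and at 2116, 3037, 1526, 1258 and 2008 after LPS. These overlapped, with a log2 fold change of -0.45 ± 0.22 (adjusted p = 0.12). Without the positive library of animal 267 it was -0.65 and called (adjusted p = 0.019).

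Aspa encodes the enzyme that splits N-acetylaspartate, a source of acetate for myelin lipid. In input it stood at 378, 597, 499.5 and 496 in PBS animals 268, 272, 273 and 506, and at 297, 350, 124 and 400 in LPS animals 266, 267, 270 and 507. LPS animal 270 was far below the other LPS animals and 507 above PBS animal 268. The log2 fold change of -0.75 ± 0.36 was not called (adjusted p = 0.18), whereas with the animal as a block it was (-0.91, adjusted p = 0.038). Among TRAP-positive libraries Aspa stood at 126, 61.9, 61.4 and 85.3 after PBS and at 113, 53.9, 35.2, 25.4 and 76.4 after LPS, with overlap (-0.48 ± 0.38, adjusted p = 0.34).

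The genes were also compared with each other within libraries, as the log2 ratio of 2 genes, which does not depend on the size factor. This was added after the values had been seen. In input the two-sided exact permutation test of Input LPS against Input PBS, whose smallest p is 0.029, gave p under 0.05 for 17 of 36 pairs, and after adjustment over the 36 pairs 0 passed (smallest adjusted p = 0.061). All 17 stood at this smallest p, and an adjusted p under 0.05 would have needed more pairs there. That 0 passed therefore says little about these pairs. The ratio of Mag to Ugt8a was 1.36 higher on the log2 scale after LPS, that of Mbp to Opalin 1.38 higher and that of Mbp to Mog 0.79 higher (exact permutation p = 0.029 each). Opalin and Ugt8a did not separate (Opalin minus Ugt8a -0.09, exact permutation p = 0.80), and neither did Mbp and Mobp (0.004, exact permutation p = 1.0).

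Among positive libraries the smallest p of the same exact test is 0.016, and 14 of 36 pairs had p under 0.05, of which 0 passed after adjustment (smallest adjusted p = 0.071). The coarse steps of the test limit what adjustment can pass here too. There the log2 ratio of Mog to Mag differed by -1.52, LPS minus PBS, and that of Mbp to Mog by 1.16 (exact permutation p = 0.016 each). Mog and Opalin did not separate (0.12, exact permutation p = 0.78).

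Marker lists of other cells were summed in the same libraries. In input the 9 markers of precursors and newly formed oligodendrocytes took 0.0448% to 0.0544% of a PBS library and 0.0381% to 0.0407% of an LPS library, with 3 of 9 called lower. Of all genes tested, 5.26% were called lower in input. The 8 neuron markers took 0.687% to 0.720% and 0.643% to 0.669%, with none called in input in either direction. The 7 astrocyte markers took 0.456% to 0.484% and 0.492% to 0.558%, with 2 called higher and 1 lower, and the 6 endothelial markers 0.0071% to 0.0105% and 0.0108% to 0.0156%, with 2 higher and 1 lower. These 4 sums did not overlap between the treatments in input.

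Among positive libraries the neuron markers took 0.662% to 0.737% after PBS and 0.506% to 0.658% after LPS, without overlap and with 3 of 8 called lower. Of all genes tested, 14.9% were called lower after LPS in this fraction. The precursor markers took 0.0135% to 0.0211% and 0.0112% to 0.0172%, with 4 of 9 called lower and 1 higher. For the endothelial markers, 2 of 6 were called lower and 1 higher, with a median log2 fold change of -0.47, and their sums overlapped. Astrocyte markers took 0.439% to 0.601% and 0.453% to 0.512%, with 1 called higher and 1 lower. The 9 microglia markers took 0.743% to 0.876% of a Positive PBS library and 0.668% to 0.890% of a Positive LPS library, with 3 called higher and 3 lower. No marker was at 0 in a group, and the part of these shifts in the values of the myelin genes was not tested.

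Of 18 other proteins of the sheath and of oligodendrocytes, 10 were called lower and 1 higher in input after LPS, with a median log2 fold change of -0.53. For this list and those below, 5.26% of all genes tested were called lower in input after LPS and 14.9% in the positive fraction. For positive against input in PBS animals the share was 18.8%. The share of all genes called higher is not given for these comparisons, so counts of higher genes have no such reference. The 3 largest differences were those of Pllp, a membrane protein of myelin (-2.17 ± 0.22), Apod, a lipocalin (1.82 ± 0.14), and Car2, a carbonic anhydrase (-1.18 ± 0.13). After the pulldown 6 were called lower and 2 higher, led by Apod (1.80 ± 0.14), Pllp (-1.55 ± 0.21) and Ndrg1 (-1.21 ± 0.16). In PBS animals 15 were called lower in the positive fraction than in input and 1, Trf, higher (0.63 ± 0.14), and the largest differences were those of the tight junction protein Cldn11 (-2.75 ± 0.14), Anln (-2.70 ± 0.19) and Gpr37 (-2.32 ± 0.15). Their median was -1.36, against -2.47 for the 9 genes.

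Among 9 proteins of axon-glia contact and of oligodendrocyte gap junctions, 4 were called lower in each fraction after LPS. In input Gjb1 (-1.44 ± 0.24) and Gjc3 (-0.77 ± 0.19), gap junction proteins, were among those called. Of the same genes in positive libraries Gjc3 (-0.89 ± 0.18) was called and Gjb1 (-0.66 ± 0.27) was not.

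The galactolipid pathway around Ugt8a was followed through 9 further genes. After LPS in input 3 were called lower and none higher: Fa2h, which hydroxylates the fatty acid (-0.79 ± 0.18), Gal3st1, which adds the sulfate of sulfatide (-0.76 ± 0.22), and Gltp, a glycolipid transfer protein (-0.50 ± 0.14). Among TRAP-positive libraries 4 were called lower and 3 higher, led by Elovl1, an elongase of long fatty acids (1.47 ± 0.11), Fa2h (-0.70 ± 0.18) and Galc, which breaks galactosylceramide down (0.64 ± 0.09). In PBS animals the positive fraction held less Gal3st1 (-1.48 ± 0.22), Fa2h (-1.21 ± 0.19) and Elovl7 (-0.84 ± 0.16), while 2 of the 9 were higher. Cers2 was not analysed here.

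Around Aspa, 4 genes of N-acetylaspartate supply and acetate use were measured, and 0 were called after LPS in input. There Acss1 was at -0.38 ± 0.15, the carrier Slc13a3 at -0.18 ± 0.23 and Nat8l, which makes N-acetylaspartate, at -0.03 ± 0.11. Among positive libraries Slc13a3 rose (2.43 ± 0.23). None of the 4 was called between the fractions in PBS animals.

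Of 11 transcription factors and regulators of oligodendrocyte differentiation tested, 3 were called lower in input after LPS: Olig1 (-0.96 ± 0.15), Olig2 (-0.64 ± 0.18) and Sox8 (-0.63 ± 0.16). After the pulldown Sox10 (-0.92 ± 0.23), Olig1 (-0.86 ± 0.14) and Sox8 (-0.75 ± 0.15) were called lower. In PBS animals 8 of the 11 were lower in the positive fraction, led by Nkx6-2 (-2.15 ± 0.34). Myrf and Zfp24 were not analysed here.

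Among the 9 markers of precursors and newly formed oligodendrocytes, Gpr17, a receptor of cells that have just left the precursor stage, fell most in input (-2.21 ± 0.24), followed by Enpp6 (-1.08 ± 0.25) and Cspg4 (-0.85 ± 0.18). In PBS animals 8 of the 9 were lower in the positive fraction than in input, with a median of -1.43. Of 6 peripheral myelin markers 4 passed the filter. After LPS in input Ncmap was called higher (1.09 ± 0.36) and Pmp22 lower (-0.57 ± 0.13).

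The oligodendrocyte marker list of the study, which came from published purified and single cells, held 194 genes, 8 of them among the 9 genes here. Of its 185 other genes tested, 73 were called lower and 3 higher in input after LPS, with a median log2 fold change of -0.33, and the 3 higher were Apod, Tmbim1 (0.53 ± 0.12) and Rhou (0.43 ± 0.12). In pulled-down RNA 57 were lower and 16 higher after LPS. Over all genes, 55.5% to 58.2% of the calls in this comparison were higher when 1 library was left out at a time. Among list genes averaging at least 100 normalised counts, Adamtsl4 (2.92 ± 0.19), Galnt6 (2.17 ± 0.30) and Gsn (1.84 ± 0.69) led those that rose. The call of Gsn was near the threshold (adjusted p = 0.040 by the edgeR test). Gpr17 (-2.39 ± 0.24) and Pllp (-1.55 ± 0.21) were among those that fell. In PBS animals 138 were lower and 9 higher in the positive fraction than in input, with a median of -0.84. Among its genes averaging at least 100 normalised counts, the protease gene Klk6 (-3.39 ± 0.41) had the largest depletion, followed by Ermn and Gjb1 (-3.09 ± 0.27).

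**Figure D4:**
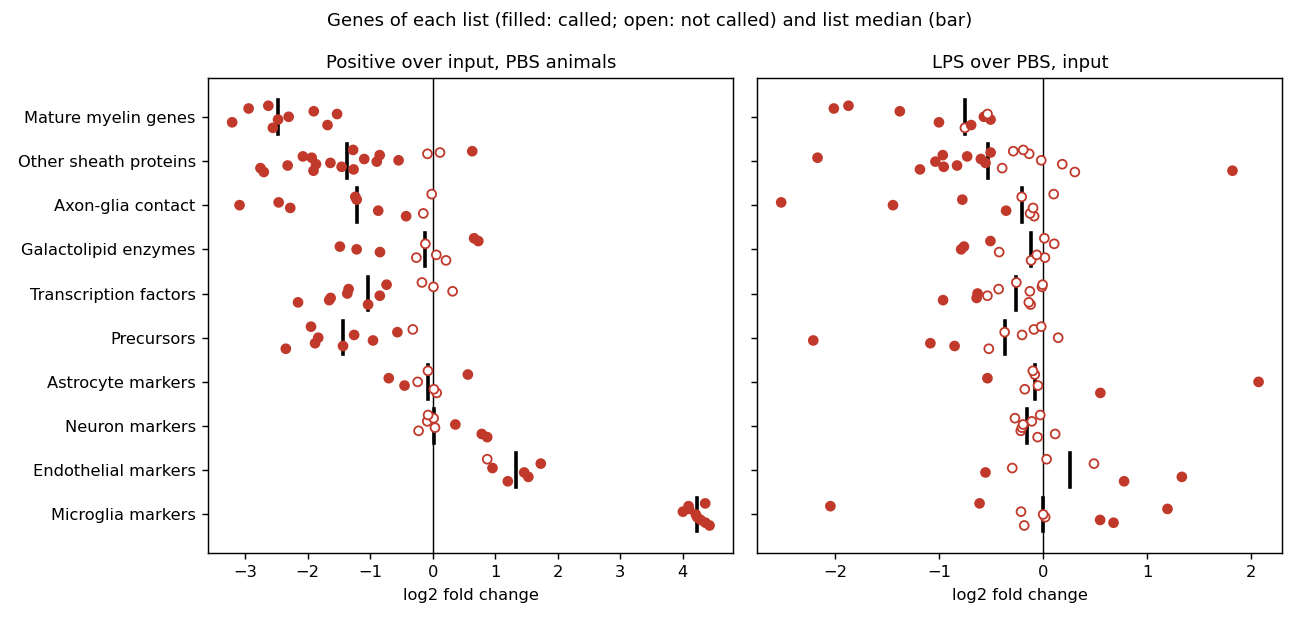
log2 fold change (x axis) of each gene of 10 lists (y axis), for positive over input in PBS animals on the left and for LPS over PBS in input on the right. Filled points are called, open points are not, and black bars are list medians. On the left the 9 myelin genes lie between -3.20 and -1.53, astrocyte and neuron markers lie around 0, and microglia markers lie between 4.00 and 4.43.

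Across the 17 libraries each of the 9 genes followed the mean of the other 8, with Pearson's r from 0.926 for Aspa to 0.989 for Cnp on the log2 scale. Most of this spread is the step between the fractions, and the libraries of 1 animal share their tissue, so these values describe the pattern only. Of 12599 genes averaging 100 or more normalised counts, the 10 whose profile was most like the mean of the 9 were Gjb1 (r = 0.992), Gpr37, Tnfaip6, Itgb4, S1pr5, Lpar1, Tmem125, 2810468N07Rik, Olig2 and Prr18 (r = 0.974). All but 2810468N07Rik were in the oligodendrocyte list of the study. Gjb1 averaged 526 in Input PBS, 194 in Input LPS, 61.6 in Positive PBS and 38.9 in Positive LPS.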

How the data were processed

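RNA of 18 libraries was sequenced with a directional kit. The authors trimmed and aligned reads by strand in Strand NGS (mm10, RefSeq gene models) and deposited estimated counts per gene together with log2 values, scaled over all 18 libraries and set relative to Input PBS. DESeq is named in the submitters' processing notes. Estimated counts, of which 81.7% of nonzero values were not whole, were rounded. Size factors by median of ratios (15766 genes, 0.766 to 1.32), a filter that kept 14803 genes (at least 1 group with all its libraries over 20 normalised counts) and edgeR 4.0.16 quasi-likelihood fits of the 4 groups (R 4.3.3) gave 5 contrasts, with SE as the fold change over the square root of F. Libraries of 1 animal deviated together (r from 0.16 to 0.52 over 8 animals, pairing from the animal number), so fits with the animal as a block (edgeR, and limma 3.58.1 for LPS effects) were alternatives, with DESeq2 1.42.0 and others. The code was tested on simulated data. Exon lengths came from GENCODE M21 and exact tests from SciPy. The members and lists were chosen with earlier results of these data known; the genes named were all 9, the 3 largest fold changes of each list and the 10 most alike. Nothing says that brains were processed independently, so p-values measure the spread between these samples. One list gene that the rule would name is not reported here.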

Additional observations from a re-analysis of the deposited data

Results flagged for a closer look

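Over 40 groups of 4 or 5 libraries examined for a library far from the others, 2 stood out, both for the same library. The groups share libraries and genes, and Mbp is part of the summed share, so their number cannot be set against a chance rate. The positive library of PBS animal 506 was low for Mbp, at 8847 normalised counts, and for the share of the 9 genes, at 0.0538% of its counts, while the other 3 Positive PBS libraries held 13105 to 13921 and 0.0747% to 0.0756%. Without Mbp the share was 0.0245% in this library and 0.0292% to 0.0309% in the other 3, and its Mobp stood at 1898 against 2812 to 3099. The LPS effect on Ugt8a differed between the fractions by 1.13 on the log2 scale, positive minus input, by the interaction contrast of the edgeR fit (adjusted p = 0.0033). That fit does not pair the libraries of an animal. With the animal as a block the difference was called for 4 of the 9 genes and for 1915 genes in all.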

How the results depend on the processing

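Depletion of the 9 genes in the positive fraction was called for 9 of 9 in both treatments under every alternative except the deposited log2 values over all 18 libraries. In those values, which hold the nearly empty library, 0 members were called in any of the 5 comparisons, and 43, 0, 46, 483 and 0 genes over the whole table (in order, for LPS in positive libraries, LPS in input, depletion after PBS, depletion after LPS and the difference of LPS effects). Positive against input in LPS animals there reversed to 0.97 for Mbp, 0.49 for Mag, 0.79 for Mobp, 1.03 for Cnp and 0.015 for Ugt8a. Without that library the deposited values, an alternative chosen after seeing the data, returned 9 of 9.

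With the replicate block of animals, 2 members were called lower by LPS in the positive fraction, and the difference of LPS effects was called for 4 members and 1915 genes. Of the other calls on the 9 genes, the block added Mobp and Aspa in input and changed none besides. DESeq2 called 2 members for the difference. Without animals 506 and 507, 1083 genes were called for LPS in input and 323 for the difference. In female animals alone, also chosen after seeing the data, 4 members and 740 genes were called for LPS in input, 0 members and 75 genes for the difference, and the difference reversed to -0.14 for Mog and -0.10 for Aspa.

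Leaving out 1 library at a time gave 5 to 7 members for LPS in input, 4 to 6 in the positive fraction and 1 to 2 for the difference, where Mag was added without either library of animal 268 or the input library of 270. Over these 17 runs the difference lay between -0.054 and 0.54 for Aspa (below 0 without Positive LPS 266), between -0.11 and 0.23 for Mog (below 0 without Positive LPS 267 or Input PBS 272) and between -0.12 and 0.24 for Mobp (below 0 without Positive LPS 267, Input LPS 270 or Positive PBS 506). The share of the members without Mbp was 0.118% and 0.0740% of input libraries after PBS and LPS and 0.0287% and 0.0224% of positive ones. Library totals as the scale moved the median of all genes by -0.12 and -0.18 for depletion after PBS and after LPS. The causes were not tested. Of the calls for LPS in input, that of Mag was lost under 18 of 31 alternatives and that of Mbp under 9 of 31.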
